A study of Mus musculus with 12 samples.

Results

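The 10 genes described here encode acute phase proteins, the plasma proteins whose output from the liver changes during inflammation and tissue injury. They are the serum amyloid A genes Saa1, Saa2, Saa3 and Saa4, the orosomucoids Orm1 and Orm2, the lipocalin Lcn2, the pentraxins Apcs and Crp, and Itih4. All 10 symbols were found on the array through the RefSeq accession of their probes, with 12 of the 41174 non-control probes and 10 of the 16535 genes that could be named. Saa1 and Saa4 had 2 probes each and the other members 1 probe each. Hepatocytes are the main source of these proteins, and cytokines of the interleukin-6 and interleukin-1 families induce them through the transcription factors STAT3, C/EBP and NF-kB. Albumin and other negative acute phase proteins run the opposite way in that response.

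The question of the series was what the pluripotency factor NANOG does in adult stratified epithelia, and the liver is the second organ sampled. Liver TG and esophagus TG came from 3 male mice of genotype Col1a1tetO-Nanog/+;Rosa26rtTA/+, which carry a doxycycline-inducible Nanog transgene at Col1a1 and the rtTA activator at Rosa26, a locus active in most cell types. Liver CTR and esophagus CTR came from 3 male mice of genotype Col1a1+/+;Rosa26rtTA/+, which carry the activator and no transgene. All 6 animals had a mixed 129Sv/C57BL6 background, were 8 months old, and drank doxycycline at 0.2 mg/ml in 7.5% sucrose over 48 h. Each organ of each animal was put on 1 array, so that every group holds 3 arrays, a number that limits the precision. Every level below is a log2 signal relative to the 75th percentile of the same array, so that levels of a probe can be compared between arrays but not with another probe.

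Depending on the array, 56.4% to 81.8% of probes passed the scanner's test for a signal well above background. The 13 hepatocyte markers measured, such as Alb and F2, were all well above background in every liver, and the 14 esophageal keratinocyte markers, such as Krt4 and Krt15, in every esophagus. The single Nanog probe was well above background on 0 of 12 arrays, at -6.82, -7.09 and -5.62 in TG livers, against -7.65, -7.59 and -6.28 in CTR livers. Whether this probe lies within the transgene is not stated in the labels, so it does not check the labels.

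The clock genes of 2 animals went different ways in their 2 organs. Per2, a repressor of the circadian clock, read 0.66, -1.73 and 0.70 in TG livers, against -1.60, 0.99 and 1.27 in CTR livers, so that TG2 and CTR1 were low. In the esophagi it read -2.92, -2.46 and -0.73 in TG mice, against -0.41, 0.26 and 0.26 in CTR mice, so that TG1 and TG2 were lowest. Arntl, which encodes the clock activator BMAL1, was highest in the livers TG2 and CTR1 and in the esophagi TG1 and TG2. Animals TG1 and CTR1 were thus unlike between their organs, and the labels give no time of dissection. Different times and an exchange of labels within 1 organ cannot be told apart here, and an exchange of TG1 with CTR1 would change both the TG minus CTR values and which animals are high in both organs. Animals are named by their labels throughout. For the members, comparisons of TG with CTR are therefore also given without these 2 arrays of the organ. For the other gene lists they are given with all arrays only.

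In the liver, most members differed more between mice of 1 genotype than between the means of the genotypes. Liver TG2 and liver CTR1, 1 animal of each genotype, held the 2 highest values of 9 of the 10 members, and the exception was Itih4. The same 2 arrays held the 2 highest values of 11.6% of the 21203 genes tested in liver with a value on every liver array. These 2 arrays were singled out after the values were seen, so that the count is a description and carries no test.

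Saa1 and Saa2 encode the main acute phase serum amyloid A proteins, which travel in plasma on high-density lipoprotein. Saa1 read 4.71, 10.23 and 4.22 in TG livers 1 to 3, against 9.76, 3.94 and 7.58 in CTR livers 1 to 3. Saa2 read 4.47, 9.94 and 4.02 in TG livers, against 9.38, 3.41 and 7.53 in CTR livers. Both genes were thus highest in TG2 and CTR1, intermediate in CTR3 and low in TG1, TG3 and CTR2, so that the genotypes overlapped. From the lowest to the highest liver, Saa1 spanned 78.3-fold and Saa2 92.7-fold. The second Saa1 probe kept the same highest arrays and spanned 143.3-fold. The transcripts of Saa1 and Saa2 are near-identical copies, and older annotations use their names the other way round, so that the signals of their probes cannot be separated with certainty.

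Saa3, which in mice is also made by macrophages and fat cells, read 2.04, 8.74 and 1.65 in TG livers, against 8.11, 1.22 and 4.96 in CTR livers. It kept the order of Saa1 and Saa2 over a wider span of 182.8-fold. Saa4, the constitutively expressed member of the family, read 4.35, 6.59 and 5.24 in TG livers, against 6.41, 4.98 and 5.58 in CTR livers. Its span of 4.73-fold was the smallest of the 4 Saa genes, and its second probe spanned 2.5-fold with the same 2 arrays on top.

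Shown are the promoters of Saa1, Saa2, Saa3 and Lcn2, the members with the widest spans in these livers, and that of Crp. Crp stayed within a 1.98-fold range, but its highest values were also in TG2 and CTR1. Its Pearson r with Saa1 over the livers was 0.83. Each window runs from 250 bases before to 50 bases after the annotated start, 5′ to 3′ on the strand of the gene, as RefSeq gives it on GRCm38.p6. Capitals mark matches to C/EBP (TTNNGNAA) or NF-kB (GGG, any 4 bases, TCC) motifs on either strand. The windows are chr7:46742931-46743230 (minus strand) for Saa1, chr7:46751583-46751882 (plus strand) for Saa2, chr7:46715627-46715926 (minus strand) for Saa3, chr2:32387690-32387989 (minus strand) for Lcn2 and chr1:172697806-172698105 (plus strand) for Crp.
Saa1: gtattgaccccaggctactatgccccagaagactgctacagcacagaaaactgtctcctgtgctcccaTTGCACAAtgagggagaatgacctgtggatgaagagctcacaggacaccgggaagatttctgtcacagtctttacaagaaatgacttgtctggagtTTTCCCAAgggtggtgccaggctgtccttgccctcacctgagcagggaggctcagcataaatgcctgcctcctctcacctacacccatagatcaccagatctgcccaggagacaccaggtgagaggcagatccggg
Saa2: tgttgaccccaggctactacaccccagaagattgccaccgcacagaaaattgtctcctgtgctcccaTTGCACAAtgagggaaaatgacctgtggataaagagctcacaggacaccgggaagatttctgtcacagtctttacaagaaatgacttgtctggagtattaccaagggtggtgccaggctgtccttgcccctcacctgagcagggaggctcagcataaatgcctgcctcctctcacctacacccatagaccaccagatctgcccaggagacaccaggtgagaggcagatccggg
Saa3: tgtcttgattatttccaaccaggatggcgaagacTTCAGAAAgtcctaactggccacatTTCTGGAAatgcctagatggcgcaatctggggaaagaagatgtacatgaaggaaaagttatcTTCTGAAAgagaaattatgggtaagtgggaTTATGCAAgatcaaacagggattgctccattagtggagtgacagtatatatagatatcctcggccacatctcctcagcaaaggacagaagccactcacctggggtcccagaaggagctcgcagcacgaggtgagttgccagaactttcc
Lcn2: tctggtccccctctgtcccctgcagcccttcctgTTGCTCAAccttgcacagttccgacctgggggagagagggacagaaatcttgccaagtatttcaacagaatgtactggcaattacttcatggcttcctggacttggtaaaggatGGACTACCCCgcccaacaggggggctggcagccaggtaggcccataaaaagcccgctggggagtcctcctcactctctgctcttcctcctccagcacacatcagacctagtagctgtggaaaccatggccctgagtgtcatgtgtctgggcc
Crp: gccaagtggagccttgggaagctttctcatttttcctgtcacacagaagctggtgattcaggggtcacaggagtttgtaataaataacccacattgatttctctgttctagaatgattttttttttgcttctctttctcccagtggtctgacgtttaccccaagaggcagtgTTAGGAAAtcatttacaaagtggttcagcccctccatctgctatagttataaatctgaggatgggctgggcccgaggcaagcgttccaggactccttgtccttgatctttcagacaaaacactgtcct

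Over 299 aligned bases, the Saa1 and Saa2 windows were identical at 287, or 96.0%, while Saa1 and Saa3 were identical at 65.1% of 261 aligned bases. A C/EBP match was present in 7 of the 9 member windows held in the RefSeq table, in Saa1, Saa2, Saa3, Saa4, Orm2, Lcn2 and Crp. The same letters were present in 40.7% of the 32851 promoter windows of that length, so they are common. Saa3 held 4 C/EBP matches, Saa1 held 2, and Saa2 kept the match TTGCACAA of Saa1 and lacked the other. NF-kB matches were found in Lcn2 and Itih4 (2 of 9 windows, against 19.2% of all windows), and STAT3 matches (TTCNNNGAA) in Apcs and Itih4 (2 of 9, against 8.30%). The interleukin-6 response core CTGGGAA was found in Apcs alone among the 9 windows, against 11.1% of all windows. No 2 matches in the member windows overlapped, and a match to letters says nothing about binding.

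Orm1 and Orm2 encode orosomucoid, also called alpha-1-acid glycoprotein, a plasma carrier of small lipophilic molecules. Orm1 read 4.98, 7.15 and 4.91 in TG livers, against 6.94, 5.06 and 5.66 in CTR livers. Orm2 read 4.85, 7.25 and 4.71 in TG livers, against 6.95, 4.93 and 5.61 in CTR livers. The pair ran nearly in parallel, with spans of 4.73-fold and 5.82-fold, and CTR3 stood only slightly above the 3 low livers.

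Lcn2 encodes a lipocalin that binds bacterial siderophores and so withholds iron. It read -4.27, 3.94 and -4.60 in TG livers, against 4.31, -3.60 and -3.19 in CTR livers. Its span of at least 481.7-fold was the widest of the members, and liver TG3 was the only liver on which the probe was not well above background. In contrast to Saa1, Saa2 and Saa3, Lcn2 in CTR3 lay next to the low livers and not between the low and the high ones.

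Apcs encodes serum amyloid P component, the main acute phase pentraxin of the mouse, and Crp encodes C-reactive protein, which responds weakly in mice. Apcs read 1.02, 4.04 and 3.03 in TG livers, against 4.09, 1.73 and 3.94 in CTR livers. Crp read 1.41, 2.38 and 2.05 in TG livers, against 2.40, 1.55 and 2.27 in CTR livers. The order of the 6 livers was the same for both pentraxins, with CTR3 close to the top 2 arrays and TG3 ahead of TG1 and CTR2, and the spans were 8.40-fold and 1.98-fold. Itih4, a member of the inter-alpha-trypsin inhibitor heavy chain family, read 3.80, 5.19 and 4.17 in TG livers, against 5.11, 4.90 and 5.59 in CTR livers. Its highest liver was CTR3, and its span was 3.45-fold.

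**Figure D1:**
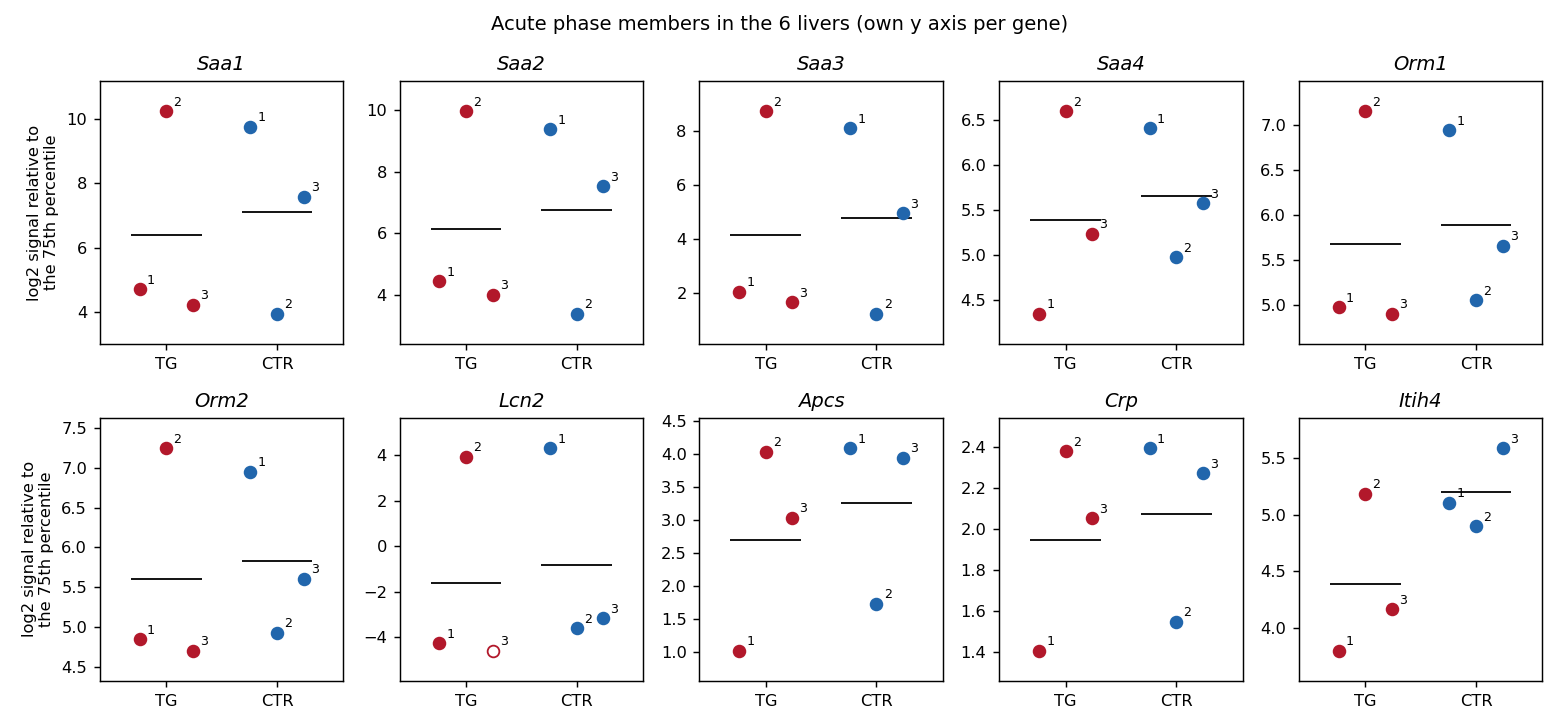
Log2 signal relative to the 75th percentile of the array for the 10 members in the 6 livers, with TG left and CTR right, the animal number beside each point and a line at the mean (n = 3 per group). Each gene has its own y axis, and the open point marks the array on which the probe was not well above background. Animals TG2 and CTR1 stand on top in 9 of the 10 panels.

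Lcn2 had the largest within-group SD of all 21203 liver genes, at 4.65 pooled over the TG and CTR groups, against a median of 0.33 over all genes. Saa3 ranked 2 with an SD of 3.73, Saa2 ranked 6 with 3.18 and Saa1 ranked 7 with 3.15. Apcs, at 1.43, ranked 221, Orm2, at 1.24, ranked 450, and Orm1, at 1.13, ranked 712. Saa4 had an SD of 0.95. Itih4 and Crp, at 0.57 and 0.48, lay among the 24% and 31.5% of genes with the largest spread.

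**Figure D2:**
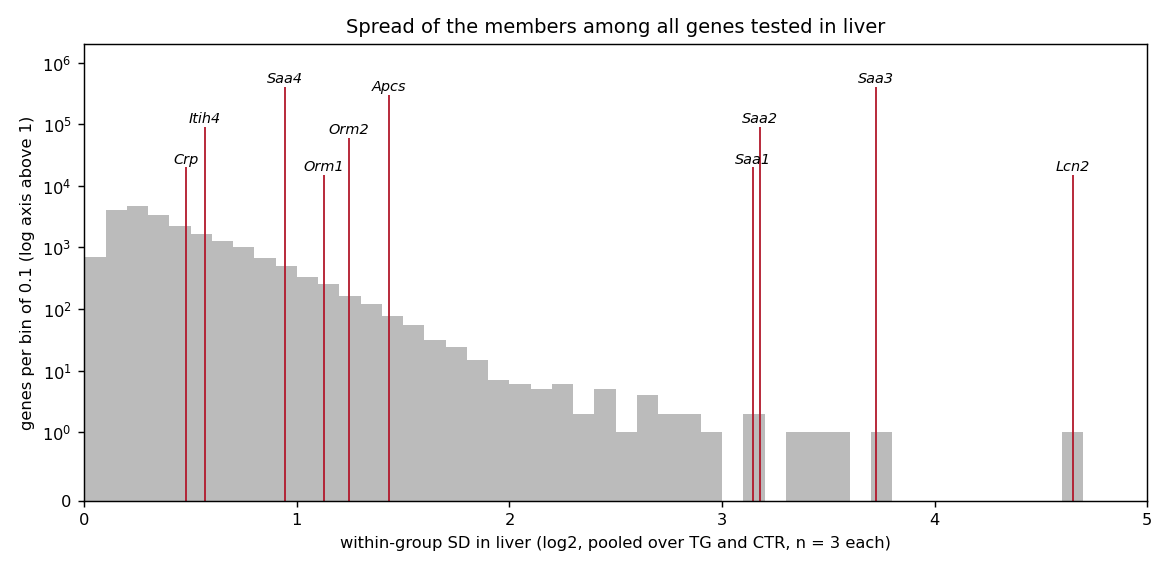
Number of genes (log axis above 1) by their within-group SD in liver in log2 units, pooled over TG and CTR (n = 3 each), in bins of 0.1, with a red line for each member. Line heights have no meaning. Lcn2 at 4.65 is the rightmost gene, and Saa1, Saa2 and Saa3 lie beyond 3.

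No member passed the test between TG and CTR livers. All 10 were tested and 0 were called, in a comparison that called 0% of 21247 genes by limma with Benjamini-Hochberg adjustment. At an unadjusted p under 0.05, the comparison held 7.64% of all genes and 0 of the 10 members. All 10 members had a lower mean in TG livers, with a median difference of -0.59, against 0.13 over all genes tested. Saa1 averaged 6.39 ± 3.34 in TG livers and 7.09 ± 2.94 in CTR livers (SD, n = 3 each), a difference of -0.71 (SE 1.61, limma adjusted p = 0.91). Lcn2 averaged -1.64 ± 4.84 in TG livers and -0.83 ± 4.46 in CTR livers (SD, n = 3 each), a difference of -0.82 (SE 2.42, limma adjusted p = 0.932). Both differences were smaller than the SD within either genotype.

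The error left wide room for most members. The 95% interval of the TG over CTR ratio ran from 0.0138 to 23.3 for Lcn2 and from 0.0512 to 7.32 for Saa1. For the steadier members it was narrower, from 0.321 to 2.17 for Saa4 and from 0.568 to 1.48 for Crp. The fit shares 1 error per gene between the organs, and the members varied less in the esophagi. Saa1 had a pooled within-group SD of 3.15 in liver and 0.27 in esophagus, and Itih4 one of 0.57 and 0.42. The SEs and intervals of TG minus CTR in liver from this fit therefore understate the spread between livers, and the p-values rest on the same error. Itih4 came nearest to the threshold, at 4.39 ± 0.72 in TG livers and 5.20 ± 0.36 in CTR livers (SD, n = 3 each), a difference of -0.81 (SE 0.38, limma unadjusted p = 0.0572, adjusted p = 0.65). In 0 of the 10 members did all 3 TG values lie on 1 side of all 3 CTR values, against 11.3% of all genes tested. Most of the lower means rested on single livers, and Itih4 stayed lower whichever array was left out, from -1.21 to -0.52. Without CTR1 the Saa1 difference was 0.63 and that of Lcn2 1.75, without TG1 they were 0.13 and 0.50, and without TG3 0.38 and 0.66. Only 1 slide held a liver of each genotype, TG3 and CTR2, and there the members' differences ran from -0.99 for Lcn2 to 1.30 for Apcs.

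With both organs of animals TG2 and CTR1 left out, a choice made after the data were seen, the liver difference was -1.30 for Saa1 (SE 1.08, limma adjusted p = 0.707). For Lcn2 it was -1.04 (SE 0.42, limma adjusted p = 0.464) and for Itih4 -1.26 (SE 0.44, limma adjusted p = 0.404). Again 0 members were called. Without the livers TG1 and CTR1, whose clock genes did not match the other organ of the animal, the Saa1 difference was 1.47 (SE 1.76, limma adjusted p = 0.668) and that of Lcn2 3.07 (SE 2.21, limma adjusted p = 0.466). Of the 10 members, 9 then had a higher mean in TG livers and 0 were called, while 100 genes were called in all.

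**Figure D3:**
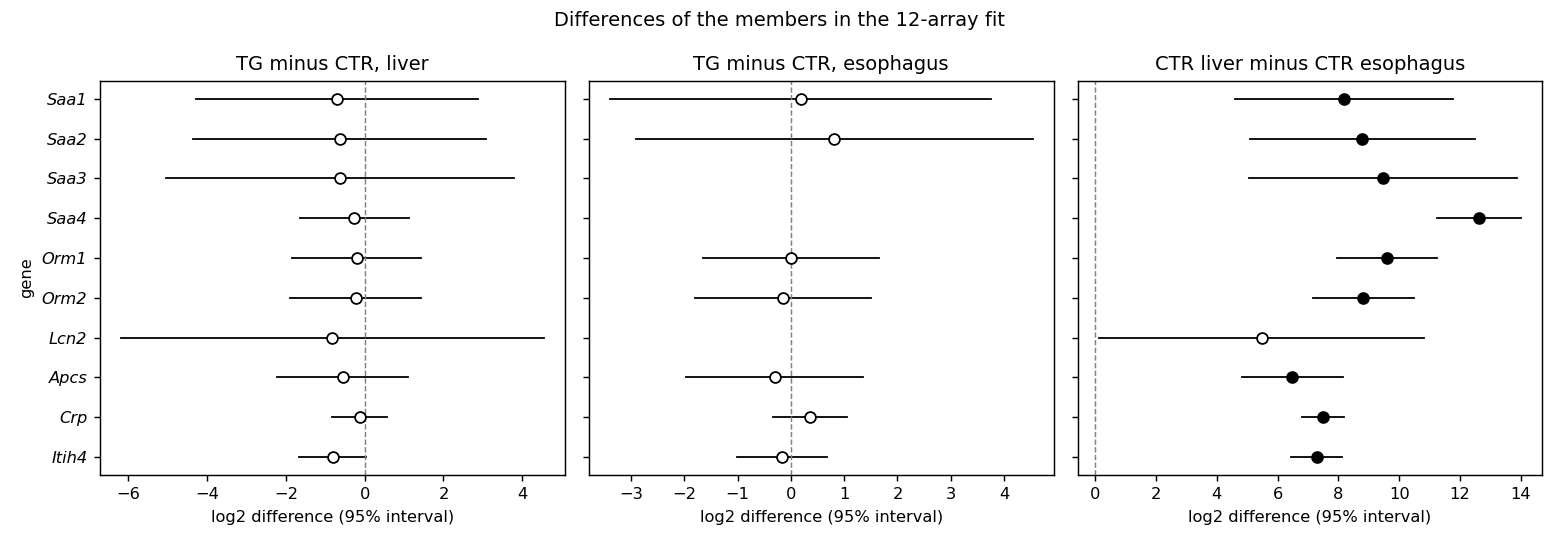
Log2 differences of the members with 95% intervals from the fit over all 12 arrays, for TG minus CTR in liver (left), TG minus CTR in esophagus (middle, 7 members tested) and CTR liver minus CTR esophagus (right). Filled points passed an adjusted p of 0.05. Every interval for TG minus CTR spans 0, and 9 members passed between the organs.

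The esophagus carried the members at lower levels, and the members varied less between mice there than in liver. The pooled within-group SD ran from 0.22 for Apcs to 0.89 for Orm1 among the 7 members tested, against a median of 0.26 over all genes. Orm1, Saa2 and Orm2 were among the 4.09%, 5.38% and 7.09% of genes with the largest spread, while Saa1 and Apcs were among the 46% and 61.9%. Saa1, Saa2, Orm1, Orm2, Apcs and Itih4 were well above background on all 6 esophagus arrays. Crp was so on 5, Saa3 on 4, Lcn2 on 2 and Saa4 on 1. Saa1 read -0.96, -0.996 and -0.74 in TG esophagi, against -0.76, -1.02 and -1.47 in CTR esophagi, a span of 1.66-fold where the livers spanned 78.3-fold. Saa2 read -0.86, -1.60 and -1.16 in TG esophagi, against -1.51, -1.30 and -3.27 in CTR esophagi, where CTR3 stood below the other 5. Apcs ran from -3.77 to -3.29 in TG esophagi and from -3.37 to -3.02 in CTR esophagi, and Itih4 from -2.70 to -1.87 in TG esophagi and from -2.57 to -1.77 in CTR esophagi. Crp lay between -5.12 and -5.02 in TG esophagi and between -5.84 and -4.99 in CTR esophagi.

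In the esophagus too, the orosomucoids, Saa3 and Lcn2 were highest in animals TG2 and CTR1. Orm1 read -4.28, -2.80 and -4.05 in TG esophagi, against -2.82, -3.57 and -4.75 in CTR esophagi, and Orm2 read -3.13, -2.45 and -3.85, against -2.42, -2.71 and -3.85. For both, the esophagi of animals TG2 and CTR1 were the highest 2, as their livers had been. Of the 7 members tested in esophagus, Orm1 and Orm2 had this order, against 4.83% of the 23197 genes tested there. Lcn2 read -6.60, -4.76 and -6.46 in TG esophagi, against -5.81, -5.94 and -7.14 in CTR esophagi, and was well above background on the TG2 and CTR1 arrays only. Saa3 read -5.96, -4.29 and -4.66 in TG esophagi, against -3.14, -5.65 and -5.35 in CTR esophagi, again with CTR1 and TG2 on top. Saa4 was well above background on the TG3 array only, at -6.03.

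Markers of other cell types also differed between the esophagi. The 9 airway epithelium markers summed to between 0.15 and 6.82 on the log2 scale in TG esophagi, with TG2 highest, and to between 5.04 and 8.27 in CTR esophagi, with CTR1 highest. Bpifa1, a secreted airway protein, read -5.20, 4.44 and -5.71 in TG esophagi, against 7.18, 4.02 and 5.16 in CTR esophagi. The 10 fat cell markers summed to between 6.04 and 7.87 in TG esophagi and to between 7.21 and 8.05 in CTR esophagi. The airway and the fat cell sums were both highest of all 6 in CTR1 and TG2. Neutrophil markers, 12 in number, summed to between 3.91 and 5.04 in TG esophagi and to between 5.43 and 6.37 in CTR esophagi, while their medians overlapped, from -4.80 to -3.33 in TG esophagi and from -5.10 to -3.55 in CTR esophagi. Ltf, lactoferrin, is on both the neutrophil and the airway list. Macrophage markers, 11 in number, summed to between 6.18 and 7.33 in TG esophagi and to between 6.54 and 7.18 in CTR esophagi, with TG2 and CTR1 the highest of all 6. Of 10 macrophage markers tested there, 4 had that order, as did 4 of 10 fat cell markers, against 4.83% of all genes. The same order was held by 2 of 8 neutrophil markers and 0 of 8 airway markers tested. The part of these cells in the order of Orm1, Orm2, Saa3 and Lcn2 was not tested, and in whole organs fewer cells of a type and less RNA per cell cannot be told apart.

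**Figure D4:**
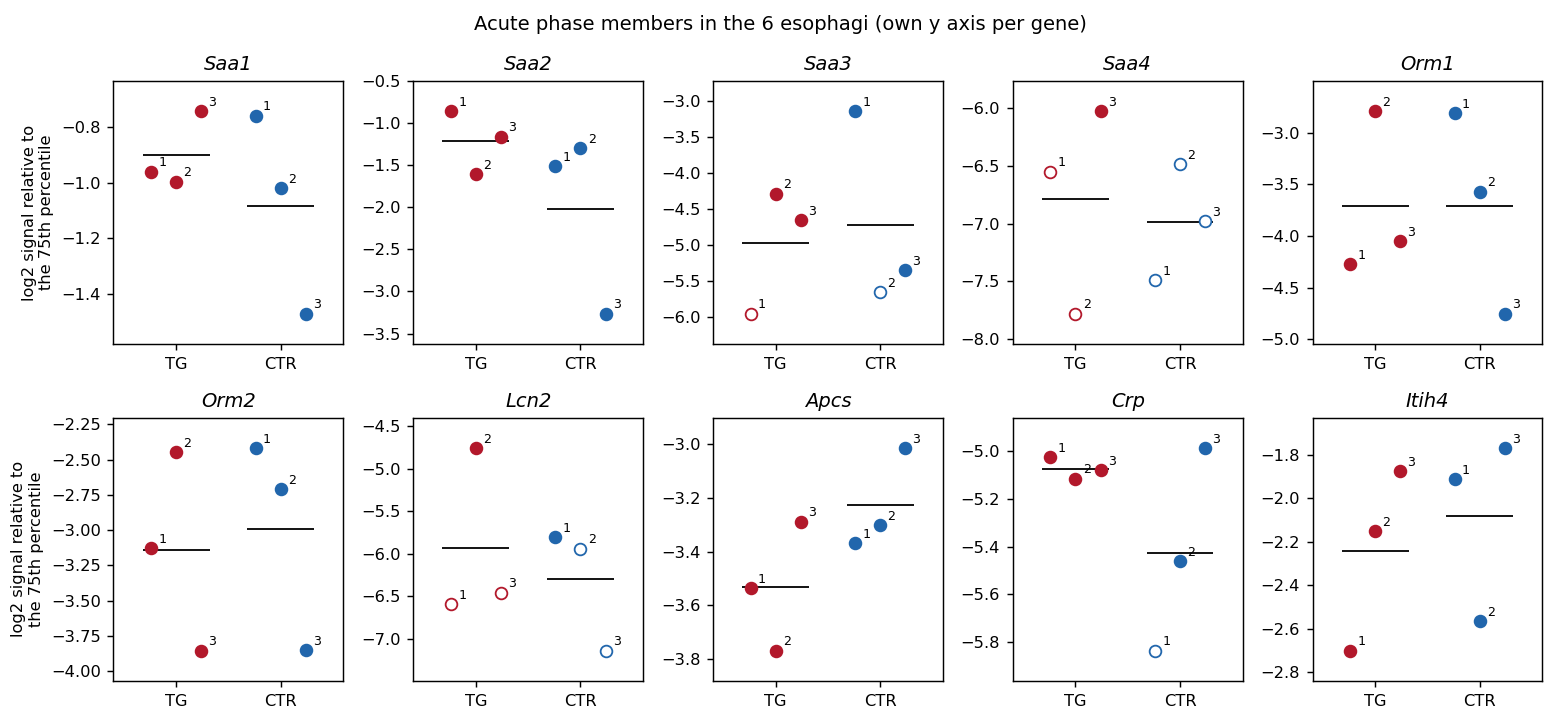
Log2 signal relative to the 75th percentile of the array for the 10 members in the 6 esophagi, with TG left and CTR right, the animal number beside each point and a line at the mean (n = 3 per group). Each gene has its own y axis, and open points mark arrays on which the probe was not well above background. Orm1 and Orm2 are highest in TG2 and CTR1.

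No member passed between TG and CTR esophagi. Of the members, 7 were tested and 0 called, in a comparison that called 0% of 23208 genes and held 3.85% of them, and 0 of the 7 members, at an unadjusted p under 0.05. The limma adjusted p was 1 for every tested member. The largest difference was that of Saa2, which averaged -1.21 ± 0.37 in TG esophagi and -2.02 ± 1.08 in CTR esophagi (SD, n = 3 each), a difference of 0.82 (SE 1.67). Crp differed by 0.35 (SE 0.31), and the median over the 7 members was 0.0066, against -0.0034 over all genes. Without the esophagi TG1 and CTR1, 6 of the 7 members had a higher mean in TG esophagi, with differences of 0.90 for Saa2, 0.74 for Orm1 and 0.38 for Saa1, and 0.13 and 0.16 for Orm2 and Itih4, whose sign turned. Apcs was the exception at -0.37, and 0 members were called. In 0 of the 7 members did the genotypes fail to overlap, against 12.5% of all genes tested.

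The SE of the Saa genes in esophagus is carried over from the livers, because the fit shares 1 error per gene over all 12 arrays. Fitted on the 6 esophagus arrays alone, the Saa1 difference of 0.18 had an SE of 0.22 in place of 1.61 (limma adjusted p = 0.861). That of Saa2 had an SE of 0.52 in place of 1.67 (limma adjusted p = 0.799). The slide that held an esophagus of each genotype, TG1 and CTR2, gave differences from -0.70 for Orm1 to 0.44 for Saa2 among the tested members. The test of whether the TG difference was unequal in the 2 organs called 0 of 10 members and 0% of 24438 genes, with a smallest adjusted p of 0.944 among the members by limma; at an unadjusted p under 0.05 it held 0 members and 4.98% of all genes.

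Between the organs, 9 of 10 members were called higher in CTR liver than in CTR esophagus, in a comparison that called 34.5% of 23365 genes higher in liver. All 10 had a higher mean in CTR liver. Saa4 differed most: its liver values averaged 5.66 ± 0.72, and 0 of 3 CTR esophagus arrays had its probe well above background (measured mean -6.98 ± 0.50, SD, n = 3 each). Set against the detection limit of the esophagus arrays, Saa4 was at least 3390-fold higher in liver, and at least 2080-fold by its second probe. These bounds carry no test. The limma adjusted p of 4.07e-08 belongs to the measured difference of the first probe, which takes the dim esophagus signals as read. Orm1 was higher by 9.60 (SE 0.74, limma adjusted p = 1.35e-06) and Orm2 by 8.82 (SE 0.74, limma adjusted p = 2.71e-06). Crp, at 2.07 ± 0.46 in CTR liver and -5.43 ± 0.43 in CTR esophagus (SD, n = 3 each), was higher by 7.50 (SE 0.31, limma adjusted p = 1.18e-08), and Itih4 by 7.28 (SE 0.38, limma adjusted p = 6.58e-08). Apcs was higher by 6.48 (SE 0.75, limma adjusted p = 2.87e-05). For these members the distance between the organs was several times the spread between mice.

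The inducible Saa genes were higher in liver with a wider error. Saa3 was higher by 9.48 (SE 1.99, limma adjusted p = 0.00185), Saa2 by 8.79 (SE 1.67, limma adjusted p = 0.00099) and Saa1 by 8.18 (SE 1.61, limma adjusted p = 0.00124). The 2 Saa1 probes disagreed on the size, with 8.18 for the brighter and 11.33 for the dimmer. Within slides the size depended on the liver: the Saa1 difference was 4.70 where CTR2 was the liver and 11.23 where CTR1 was. Lcn2 differed by 5.47 (SE 2.42, limma adjusted p = 0.0709) and did not pass, with its probe well above background on 1 of the 3 CTR esophagi. With the animal as a block the same Lcn2 difference passed (SE 1.85, limma adjusted p = 0.0426), over the same esophagus values. In all 10 members every CTR liver value was above every CTR esophagus value, against 37% of all genes tested. Liver RNA was extracted with Trizol and a column, and esophagus RNA with a kit for fibrous tissue, so that organ and extraction cannot be told apart.

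Other acute phase genes of the liver showed the same 2 animals on top. Of 30 further positive acute phase proteins tested, 22 had their 2 highest values in TG2 and CTR1, against 11.6% of all genes tested, and Vnn1 had its 2 lowest there, against 11.9%. Orm3, a further orosomucoid picked after its values were seen, read -1.15, 4.51 and 0.16 in TG livers, against 3.94, -0.52 and 0.88 in CTR livers. Fgl1, a fibrinogen-like protein secreted by hepatocytes, read 3.70, 7.61 and 4.54 in TG livers, against 6.95, 4.68 and 6.07 in CTR livers. TG2 and CTR1 were highest for both genes, and CTR3 was next, intermediate for Fgl1. Fga, the fibrinogen alpha chain, read 5.83, 7.41 and 5.67 in TG livers, against 7.42, 5.87 and 5.97 in CTR livers. Lbp, which hands bacterial lipopolysaccharide to its receptor, and the metallothionein Mt2 were picked after their values were seen. Lbp read 1.55, 4.37 and 1.88 in TG livers, against 4.30, 2.12 and 2.51 in CTR livers, and Mt2 read 1.64, 7.01 and 0.97 in TG livers, against 6.06, 1.82 and 2.21 in CTR livers. For Lbp and Mt2, CTR3 was near the low livers, as for Lcn2.

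Negative acute phase proteins did not mirror that order. Of 19 tested, 2 had their 2 highest values in TG2 and CTR1, against 11.6% of all genes tested. Only 1, Serpina6, had its 2 lowest there, against 11.9%. Alb, serum albumin, read 10.001, 10.11 and 10.16 in TG livers, against 9.75, 10.09 and 10.08 in CTR livers. Apoa1, the main apolipoprotein of high-density lipoprotein, ran from 7.53 to 7.57 in TG livers and from 7.53 to 7.66 in CTR livers. Ttr, transthyretin, ran from 4.94 to 5.29 in TG livers and from 4.91 to 5.23 in CTR livers. Serpina6, corticosteroid-binding globulin, read 5.84, 4.87 and 6.25 in TG livers, against 4.88, 6.62 and 6.12 in CTR livers, lowest in the animals whose positive proteins were highest. The widest span of the 19, at 8.14-fold, was that of the apolipoprotein Apoa4, picked after its values were seen. It had neither order and was highest in CTR2.

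Of the signalling genes upstream of the acute phase response, 9 of 31 tested in liver were highest in TG2 and CTR1 and 4 were lowest there. Over all genes tested the shares were 11.6% and 11.9%, so the lowest count was near that share. Il6, the cytokine that drives the hepatic response, read -2.90, -1.21 and -2.99 in TG livers, against -0.81, -2.97 and -2.83 in CTR livers. The other 4 livers lay within a narrow range below these 2. Socs3, a feedback inhibitor that STAT3 induces, and Stat3 itself were picked after their values were seen. Socs3 read 0.95, 2.74 and 0.51 in TG livers, against 3.66, 0.95 and 0.63 in CTR livers, and Stat3 read 3.28, 4.16 and 2.88 in TG livers, against 4.16, 2.76 and 2.70 in CTR livers. CTR3 was among the low livers for Il6, Socs3 and Stat3, while its Saa1 and Saa2 were intermediate and its Apcs close to the top. Cebpd, the C/EBP factor induced in inflammation, had neither order. It read 2.62, 2.83 and 2.61 in TG livers, against 2.64, 3.43 and 3.72 in CTR livers, highest in CTR3 and CTR2. Il1rap, the shared subunit of the interleukin-1 receptor, stayed between 4.35 and 4.60 in TG livers and between 4.23 and 4.62 in CTR livers.

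**Figure D5:**
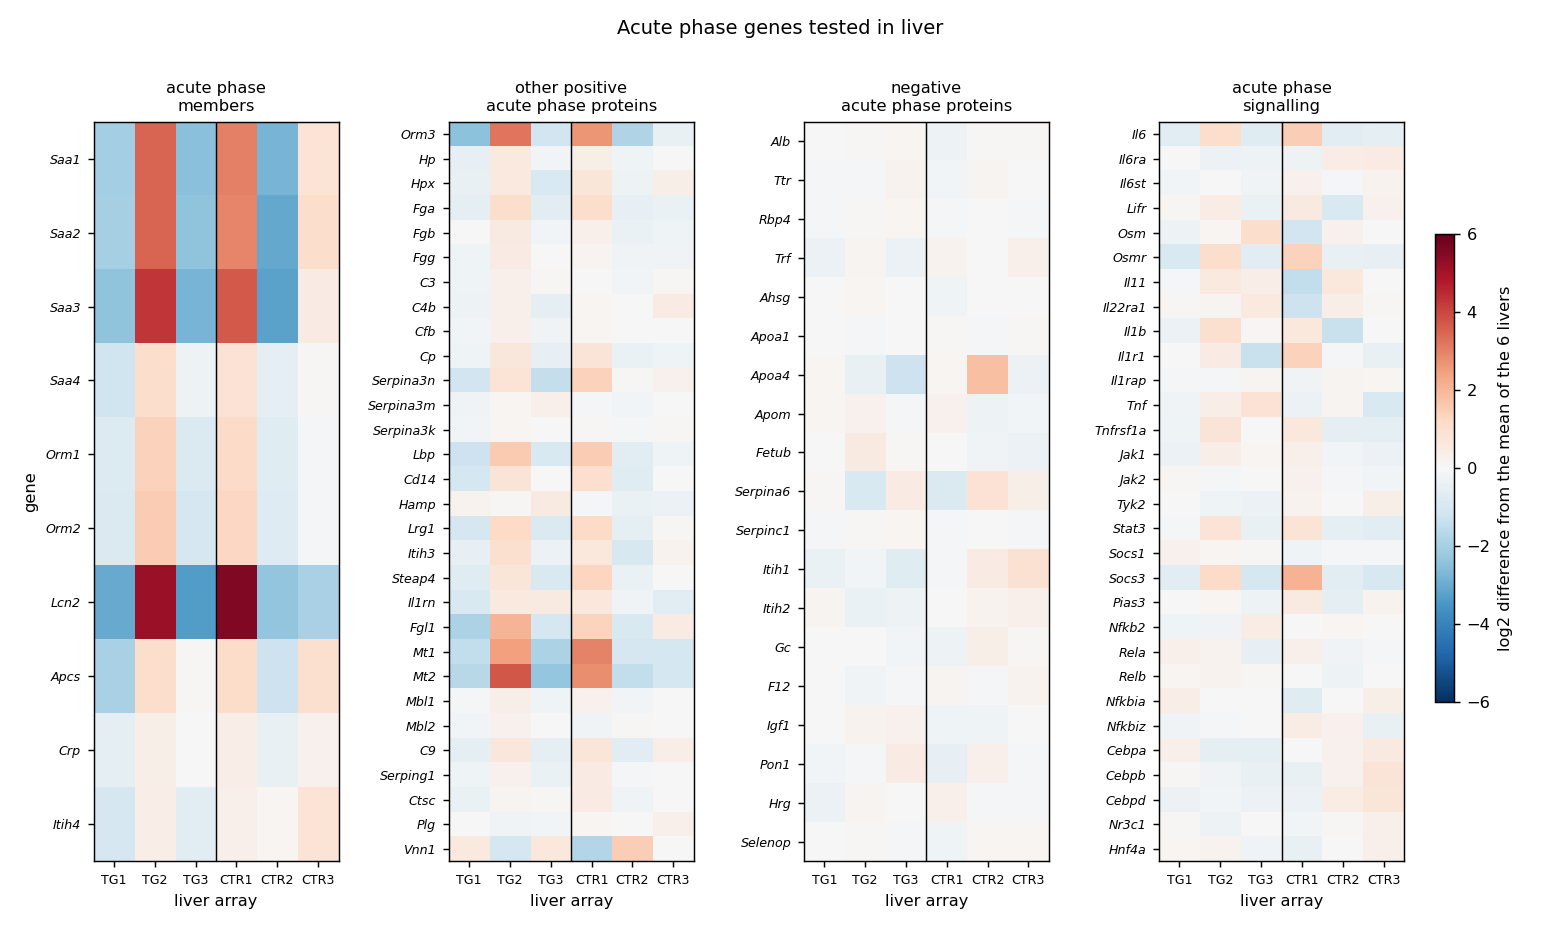
Log2 difference of each gene tested in liver from its mean over the 6 livers, for the 10 members, 30 other positive and 19 negative acute phase proteins and 30 of the 31 signalling genes. Columns are the TG livers 1 to 3 and the CTR livers 1 to 3, parted by a line. Red cells gather in TG2 and CTR1 for Saa1, Saa2, Saa3 and Lcn2 and for Orm3, Fgl1, Mt1 and Mt2. Members with small spans, such as Crp, are pale. The negative proteins are pale too, apart from a few genes such as Apoa4 and Serpina6.

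None of these lists held a gene called between TG and CTR in either organ, where 0% of all genes were called. The smallest limma adjusted p was 0.656 for the positive proteins, 0.657 for the negative ones and 0.65 for the signalling genes in liver. Median differences between TG and CTR livers were -0.12 for the positive proteins, 0.0097 for the negative ones and -0.024 for the signalling genes, against 0.13 over all genes. In esophagus the medians were -0.34 for the positive and -0.32 for the negative proteins, against -0.0034, and 0.057 for the signalling genes. Hamp, which encodes the iron hormone hepcidin, read -6.21, -7.96 and -7.46 in TG esophagi, against -0.63, -4.97 and -2.90 in CTR esophagi (limma adjusted p = 0.699). Its probe was well above background on the 3 CTR esophagi only, so its TG values are signals near background. Hp, haptoglobin, read -0.31, 2.96 and -0.26 in TG esophagi, against 3.89, 2.84 and 2.99 in CTR esophagi (limma adjusted p = 1).

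Between CTR liver and CTR esophagus, 26 of 32 positive proteins were called higher and 2 lower, and all 19 negative proteins were higher, where 34.5% of all genes were called higher and 27.7% lower. Medians of the differences were 6.16 for the positive and 8.92 for the negative proteins, against 8.49 for the 10 members and 0.14 over all genes. Of 32 signalling genes, 12 were called higher and 6 lower in liver, with Il1rap higher by 8.05 (SE 0.20). Cebpd was lower in liver, with a difference of -1.601.

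Genes for receptors and partners of the members were measured in the same livers, 18 of them tested. In TG2 and CTR1, 8 were highest and 3 lowest, against 11.6% and 11.9% of all genes tested. Fpr1, a formyl peptide receptor of phagocytes, read -2.00, 0.44 and -0.57 in TG livers, against -0.09, -1.30 and -0.52 in CTR livers. Scarb1, the scavenger receptor for high-density lipoprotein, varied less, from 3.39 to 3.63 in TG livers and from 3.19 to 3.89 in CTR livers. None of the list was called between TG and CTR, with a smallest limma adjusted p of 0.678 in liver and 1 in esophagus. Between the CTR organs 7 of 17 were called higher in liver and 2 lower, where 34.5% of all genes were called higher and 27.7% lower. Kng1, kininogen, was higher by 9.98 (SE 0.60).

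Markers of other cells in the livers were set beside the members. The 11 macrophage and Kupffer cell markers summed to between 5.22 and 7.40 in TG livers, with TG2 highest, and to between 5.66 and 6.94 in CTR livers, with CTR3 highest. Clec4f, a Kupffer cell lectin, read 2.39, 3.45 and 3.11 in TG livers, against 3.81, 2.73 and 3.62 in CTR livers. The 12 neutrophil markers summed to between 1.48 and 2.63 in TG livers and to between 0.84 and 2.92 in CTR livers, with TG2 and CTR1 highest, but the median of the same markers was highest in TG3, at -2.22, against -4.16 in TG2 and -4.01 in CTR1. TG3 also had the most of them well above background, 11, against 7 in TG2 and 8 in CTR1. That array had 81.8% of all probes well above background, the highest share of any liver. It also had the most keratinocyte markers well above background, 10, and their highest median, at -3.02, so this order was not particular to neutrophil markers. S100a9, a calcium-binding protein of neutrophils, read 0.71, 2.04 and 0.24 in TG livers, against 2.47, -0.97 and -0.89 in CTR livers. Sums of the 13 hepatocyte markers moved little, from 12.08 to 12.26 in TG livers and from 11.97 to 12.17 in CTR livers. Of these markers, 3 (Tat, Cyp2e1 and Tdo2) had their 2 lowest values in TG2 and CTR1, against 11.9% of all genes. Fgb had its 2 highest there, against 11.6%. The 14 keratinocyte markers summed to between 0.57 and 1.62 in TG livers and to between 0.58 and 0.80 in CTR livers. The part of these cells in the members' values was not tested.

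Of 13 clock genes tested in liver, 8, among them Per1, Per2 and Dbp, had their 2 lowest values in TG2 and CTR1, against 11.9% of all genes. Another 3 had their 2 highest values there, against 11.6%. These were the livers with the highest acute phase genes. In esophagus 0 of 14 had either order, against 10.5% of all genes lowest and 4.83% highest there. Arntl read -3.46, -0.10 and -1.52 in TG livers, against 0.19, -1.89 and -1.79 in CTR livers. The part of the clock in the members' values was not tested.

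By the correlation over the 6 livers, the genes most like the mean of Saa1 and Saa2 among 11331 other named genes were Dcakd, Onecut1, Sox13, Cyrib and Usp4, with Pearson r from 0.986 to 0.994. The 2 high livers, CTR3 and the 3 low livers follow each other in all 5, but over small distances. Onecut1, a transcription factor of hepatocytes, read 2.23, 2.94 and 2.27 in TG livers, against 2.94, 2.12 and 2.60 in CTR livers. For Lcn2 over the 6 esophagi, the nearest of 13344 genes were Sytl2, Rragb, Ang4, Cd38 and Chn2, with r from 0.958 to 0.981, although Lcn2 was well above background on only 2 of these arrays, so that the order of the other 4 is that of signals near background. These values describe 6 arrays each, chosen as the highest of many, and carry no p.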

How the data were processed

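Total RNA of liver and esophagus (integrity numbers 7.3 to 9.5, 1 µg labelled with Cy3) was hybridised to a 1-colour 4x44K Agilent mouse array, per the labels' protocols. Per the file headers, each deposited scanner file holds spot intensity values on a linear scale from Agilent Feature Extraction 10.7.1.1 (design 14868), background-subtracted within the array and not scaled between arrays. A second file that the authors deposited holds log2 values, whose columns have nearly equal medians (7.27 for liver TG1), and served as an alternative; its values are not centred, and its normalization and background treatment stay unknown. The submitters' processing notes name limma without a version. 

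For a level, the processed signal was put on the log2 scale and the array's own 75th percentile subtracted. Control spots and 1311 outlier spots were left out, 0 spots were saturated, spots of a probe were averaged, and each gene was represented by its brightest probe. Of 41174 probes, 23374 were named by accession through RefSeq (GRCm38.p6); the others were kept under their own identifiers. Tested were genes with a probe well above background in the whole of 1 or more of the groups compared (3 arrays). All 12 arrays entered a joint limma fit (limma 3.58.1, R 4.3.3, lmFit and eBayes) of 4 groups without a block, with two-sided tests and Benjamini-Hochberg adjustment at 0.05. Bounds use the lowest signal well above background on each array. Simulated data with known changes were used to test the steps.

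Liver and esophagus share an animal number in the labels; deviations of the organs of an animal correlated between -0.087 and 0.154. Replicate numbers shared by TG and CTR mark different animals. Each of the 5 slides was scanned at 1 time; no slide held more than 1 liver of a genotype.

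Alternatives were normexp (offset 50) on median signals, since no mean signal column was used here, quantile normalization, the authors' values, no filter, a common floor, slide or replicate blocks, only the arrays compared, mean of probes, and arrays left out. Members, gene lists and the rule for named genes (every member and Nanog, per list up to 4 with the smallest TG minus CTR p and up to 4 with the largest difference between organs, and the 5 genes most like Saa1 with Saa2 in liver and Lcn2 in esophagus) were chosen with earlier results of these data known. Promoters come from RefSeq (GRCm38.p6); no window of Orm1 was used. The values of 1 signalling gene are not reported here. Tables and figures used version 1.17.8 of data.table, jsonlite 2.0.0, Python 3.11.15, pandas 2.3.3, matplotlib 3.10.9 and Biopython 1.88.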

Additional observations from a re-analysis of the deposited data

How the results depend on the processing

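Members called between TG and CTR stayed at 0 in both organs, and for the difference between organs, under every alternative run. The number of members called between CTR liver and CTR esophagus was 9 or 10, with Lcn2 the one that moved: it passed with the animal as a replicate block (5.47, adjusted p = 0.0426), without liver TG2 (5.47, adjusted p = 0.0221). Without both organs of animals TG2 and CTR1, an alternative chosen after seeing the data, no remaining CTR esophagus had Lcn2 well above background, so no difference between the organs is given.

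Counts over all genes moved at the margin of 0. In esophagus normexp gave 4, 2 from the authors' deposited table, the common floor 2, and quantile normalization, slide as a fixed block and only the arrays compared 1 each; leaving out esophagus TG1 with CTR1 gave 2, and both organs of animals TG2 and CTR1 gave 10. For the difference between organs, normexp, quantile normalization, the authors' table and the floor gave 1 each. In liver, leaving out TG1 with CTR1 gave 100. Leaving out 1 array gave 0 to 7 in liver, 0 to 7 in esophagus and 0 to 1 for the difference between organs. Scaling moved the median of all liver differences to 0.10 with normexp and 0.022 with quantile normalization, from 0.13, and the 10 members stayed below it.

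Differences that passed no threshold changed sign in these cases, and the cause was not tested. Without liver TG1 and CTR1 they were 1.47 for Saa1, 1.51 for Saa2, 2.11 for Saa3, 0.64 for Saa4, 0.67 for Orm1, 0.71 for Orm2, 3.07 for Lcn2, 0.70 for Apcs and 0.31 for Crp, and with slide as a fixed block liver Crp was 0.068. Leaving out 1 array gave -2.63 to 0.63 for Saa1, -2.53 to 0.68 for Saa2, -2.92 to 1.06 for Saa3, -0.86 to 0.26 for Saa4, -0.94 to 0.32 for Orm1, -1.05 to 0.33 for Orm2, -3.61 to 1.75 for Lcn2, -1.32 to 0.28 for Apcs and -0.39 to 0.14 for Crp. In esophagus, Orm1 was -0.15 with normexp, -0.042 in the authors' deposited table, -0.12 with the floor, -0.54 with slide as a fixed block and -0.064 with slide as a random block. Saa1 was -1.17 and -0.012 with those blocks and Saa2 -0.76 with the first. Without esophagus TG1 and CTR1, Orm2 was 0.13 and Itih4 0.16. Leaving out 1 array gave -0.010 to 0.35 for Saa1, -0.51 to 0.46 for Orm1, -0.58 to 0.20 for Orm2 and -0.40 to 0.070 for Itih4 there.

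The replicate number as a block, which pairs TG and CTR by number alone, left the differences as they were and called 0 members (Saa1 in liver -0.71, adjusted p = 0.92); same-numbered deviations correlated between -0.32 and 0.0604. The animal block changed no other call among the members. Signals near background limit Lcn2, Saa3 and Saa4 in esophagus.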

Other observations

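The genes that varied most between livers of 1 genotype beside the members were Tmc5 (pooled within-group SD 3.56, rank 3 of 21203), the fatty acid hydroxylase Cyp4a14 (3.44), Gdpd3 (3.38), the lipid droplet protein Cidea (2.91), Usp2 (2.88) and the metallothionein Mt2 (2.87). Orm3 ranked 16 with 2.64. Among the 7 fat cell markers tested in liver, 3 (Cidec, Cfd and Cidea) had their 2 lowest values in TG2 and CTR1, against 11.9% of all genes. The acute phase genes were highest in these 2 livers. Cfd, complement factor D, read 1.14, -2.13 and 1.02 in TG livers, against -4.82, 0.05 and 0.62 in CTR livers. In the esophagus the largest spread belonged to other genes, led by Bpifa1 at 4.2 and the lung surfactant protein Sftpa1 at 3.60, and none of the 7 members tested was among the 20 most variable genes there.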
